A study of Mus musculus with 8 samples.

Results

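The genes described here are 10 genes of bone morphogenetic protein (BMP) signalling and of its ID targets, namely the ligand genes Bmp2, Bmp4 and Bmp6, the receptor genes Bmpr1a and Bmpr2, the inhibitory Smad gene Smad6, and Id1, Id2, Id3 and Id4. They were chosen by gene symbol, and all 10 were found among the 25237 genes of the deposited table. RNA had been sequenced from skeletal muscle stem cells, also called satellite cells, which were sorted from hindlimb muscle as VCAM1+ cells that lack CD31, CD45 and Sca1. The mice were male and 2-4 months old. The tested mice had received ketone bodies (ketones 1 to 4) and the control mice phosphate-buffered saline, PBS (PBS 1 to 4). The label of the treatment reads ketones, and dose, route and duration were not among the sources used. The strain entries are C57BL/7, C57BL/8 and C57BL/9 for ketones and C57BL/6 for PBS, so if these entries name strains, strain and treatment cannot be told apart. Whether separate animals stand behind the libraries is not stated in the labels, and the p-values therefore describe library-to-library spread, some of which may be technical.

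BMPs are secreted dimers that bring together type I and type II receptor kinases on the cell surface. The activated type I receptor phosphorylates Smad1, Smad5 and Smad9, which enter the nucleus with Smad4 and switch on targets such as the ID genes and Smad6. ID proteins have a helix-loop-helix domain but no DNA-binding region, and they capture E proteins, the partners that MyoD needs to bind DNA. In satellite cells BMP signalling is known for keeping the progeny dividing and for delaying their differentiation, and in vascular endothelium the same receptors and ID genes are also active.

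In libraries of sorted muscle stem cells from ketone-treated mice all 4 ID transcripts and Smad6 were higher than in PBS libraries. Which cells carried the difference was not tested. The receptor transcripts Bmpr1a and Bmpr2 and 2 of the 3 main ligand transcripts did not pass the test. Other receptor genes differed in both directions. Id1 was 3.76-fold higher in ketones than in PBS, and Smad6 2.69-fold higher. Of these 3 ligands Bmp2 rose, by 0.69 on the log2 scale. Values were compared as log2(normalized count + 1) with limma, and a gene was called at an adjusted p below 0.05 over all 14022 genes tested, which are those with a mean of at least 10 normalized counts. By this rule 6 of the 10 genes rose and 0 fell, against 12.8% of all tested genes that rose and 12.8% that fell. At an unadjusted p below 0.05 also 6 rose, and with edgeR and with DESeq2 on the recovered reads 6 rose and 0 fell. The median log2 difference (ketones minus PBS, as throughout) was 0.71 over the 10 genes and -0.01 over all tested genes. In 7 of the 10 genes no ketone library overlapped the PBS libraries, all 7 higher in ketones, against 14.2% of all tested genes that did so in this direction and 28.3% in either.

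**Figure D1:**
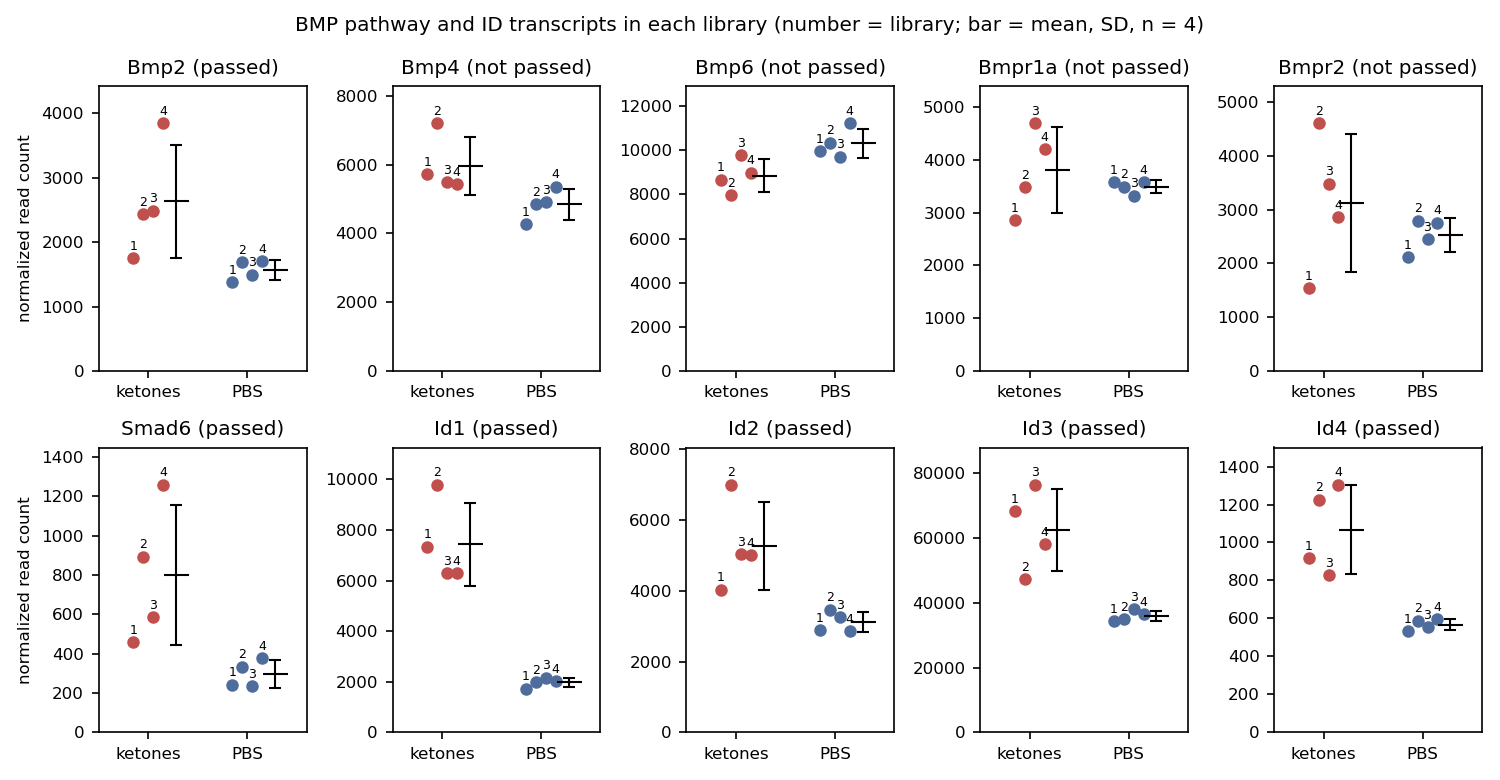
Normalized read counts (vertical axes, from 0) of the 10 genes in 4 ketone libraries (red, left) and 4 PBS libraries (blue, right). Numbers name the library, and bars give the mean and SD. The ID genes, Smad6 and Bmp2 are higher in every ketone library than in any PBS library, and the ketone libraries are spread more widely.

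The deposited values are read counts divided by 1 factor per library, and recovered depth was 19174005 to 36870537 reads. The stem cell markers Pax7 and Vcam1 were abundant in all libraries, with Pax7 at 1500 to 2014 normalized counts in ketones and 1858 to 2541 in PBS, and Vcam1 at 15580 to 40055 in ketones and 38702 to 46391 in PBS. Vcam1 fell (adjusted p = 0.0206 by limma) and Pax7 did not pass (adjusted p = 0.265). Of all 15 stem cell markers listed, 0 rose and 5 fell. All 17 endothelial markers rose, and their summed normalized counts were 41091 to 98705 in ketones and 10675 to 13950 in PBS, with none of them at 0 in any library. Pecam1, which encodes the sort marker CD31, stood at 2130 to 5606 in ketones and 649 to 907 in PBS, Cdh5 at 678 to 2045 and 216 to 269.8, and Kdr at 780 to 1998 and 348 to 477 in the same group order. Ly6a, which encodes Sca1, stood at 2320 to 6102 in ketones and 506 to 569 in PBS. Of 12 smooth muscle and pericyte markers 9 rose and 1 fell. The pericyte genes Rgs5 and Pdgfrb were among those that rose, with log2 differences of 2.11 and 1.54. Of 12 fibro-adipogenic markers 5 rose and 3 fell, and Pdgfra did not pass (log2 difference 0.59). Of 13 tested blood markers 8 rose and 0 fell, and Ptprc, which encodes CD45, did not pass (1.23). Of 12 Schwann markers 8 rose and 0 fell, and of 15 myofiber markers 9 rose and 1 fell. The 10 tenocyte markers had 4 that rose and 0 that fell. Beside these marker counts, 12.8% of all tested genes rose and 12.8% fell. The mean log2 level of the endothelial list was 10.20 to 11.54 in ketones and 8.34 to 8.79 in PBS (two-sided exact permutation p = 0.0286, the smallest that 70 assignments allow, adjusted p = 0.0571 over 12 library measures). By mean log2 level the smooth muscle, Schwann, blood and myofiber lists were also higher in every ketone library, and the list of 15 stem cell markers lower, each with the same exact permutation p. By summed counts the smooth muscle, Schwann and blood lists did not overlap either. The tenocyte list overlapped by mean log2 level but not by summed counts, at 17601 to 41121 in ketones and 4413 to 12483 in PBS. The myofiber sum, however, was 34680.2 in ketones 1 but 6013 to 8293 in ketones 2 to 4, whereas PBS libraries had 9789.6 to 13869. Much of the PBS sum came from Actn3, which fell and averaged 1876 in ketones and 7321 in PBS. Of the 15 myofiber markers, 9 were higher in every ketone library than in any PBS library, 1 was lower and 5 overlapped. The stem cell sum was 372980 to 529660 in ketones and 460282 to 497088 in PBS, with ketones 3 and 4 above all PBS libraries. Much of it came from Sdc4 and Chodl, with means of 165225 and 128766 in ketones and 153223 and 91252 in PBS. Of the 15 stem cell markers, 5 were lower in every ketone library than in any PBS library, 2 were higher and 8 overlapped. In bulk RNA, more cells of a type and more RNA per cell cannot be told apart, and the part of these other cell types in the differences below was not tested.

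Per kilobase of exon, Id3 was by far the most abundant of the 10 genes in both groups. It stood at 34921 ± 7054 normalized counts per kilobase in ketones and 20080 ± 882 in PBS (SD, n = 4 each, as throughout), which is place 22 in ketones and place 41 in PBS among the 24365 genes with an annotated length. In ketones Id1 came next with 6409 ± 1421, ahead of Bmp4 (2655 ± 372), Bmp6 (2270 ± 191) and Id2 (2161 ± 511), whose ranges overlapped from each to the next. In PBS the level of Bmp6 (2645 ± 170.0) came before those of Bmp4 (2156 ± 199), Id1 (1703 ± 154) and Id2 (1279 ± 121), and no neighbours among these overlapped. Bmp2, Bmpr1a, Id4, Smad6 and Bmpr2 had lower levels, from 740 to 174 per kilobase in ketones and from 549 to 92.8 in PBS. The ranges of Id4, Smad6 and Bmpr2 overlapped from neighbour to neighbour in both groups. The length used is that of all annotated exons of a gene together, 17983 bases for Bmpr2, and the order depends on it. By normalized counts without length, Bmpr2 averaged 3127 in ketones, above Bmp2 at 2630 and Id4 at 1068. The summed level of the 4 ID genes was 43769 ± 5659 per kilobase in ketones and 23210 ± 1057 in PBS. Id1 made up 10.8 to 22.2% of this sum in ketones and 6.79 to 7.60% in PBS, and Id3 69.4 to 84.7% and 85.7 to 87.2% in the same group order, so the makeup of the sum did not overlap between groups for either gene.

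Among the ligands, Bmp2 (chromosome 2, 133552159 to 133562885, mm10) rose. Bmp2 had 1753, 2433, 2489 and 3846 normalized counts in ketones 1 to 4 and 1380, 1692, 1495 and 1706 in PBS 1 to 4. Ketones 1 lay just above the highest PBS library and ketones 4 far above the other 3. The log2 difference was 0.69 ± 0.20 (SE, adjusted p = 0.023 by limma). This call was lost without ketones 4 (log2 difference 0.49, adjusted p = 0.0588), without PBS 1 (0.63, adjusted p = 0.0782) and without PBS 3 (0.67, adjusted p = 0.0653).

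Bmp4 (chromosome 14, 46383520 to 46390669) did not pass although its groups did not overlap. It had 5731, 7210, 5496 and 5436 normalized counts in ketones and 4271, 4853, 4903 and 5364 in PBS, and only ketones 2 stood well above the rest. The log2 difference of 0.29 had a 95% interval of -0.02 to 0.61 (adjusted p = 0.154 by limma). Bmp6 (chromosome 13, 38345107 to 38500302) was the most abundant of the 3 main ligand transcripts in PBS per kilobase. It had 8671, 7980, 9774 and 8980 normalized counts in ketones and 9962, 10346, 9719 and 11230 in PBS, so that ketones 3 fell within the PBS range and the other 3 below it. Its log2 difference of -0.22 had an interval of -0.51 to 0.07 (adjusted p = 0.251 by limma). Of the exon bases of Bmp4, 3.96% are shared with Gm15217, and of those of Bmp6, 5.74% are shared with Txndc5, both on the other strand, and the sources used do not state whether counting was stranded.

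Of 11 other ligand genes listed for the pathway, 3 reached the minimum mean, of which Bmp5 rose and Gdf6 fell. Bmp5, a ligand of the same branch as Bmp6, had 112, 80.5, 176 and 178 normalized counts in ketones and 31.4, 45.2, 50.3 and 59.8 in PBS (log2 difference 1.49, adjusted p = 0.00639 by limma). Gdf6, a more distant BMP-type ligand, had 33.8, 35.4, 73.7 and 39.1 in ketones and 107, 141, 133 and 79.3 in PBS (-1.36, adjusted p = 0.0108 by limma). Both were low in all libraries, and neither overlapped between groups. Bmp3, a ligand that antagonizes other BMPs, averaged 64.3 ± 40.6 in ketones and 29.2 ± 18.3 in PBS and did not pass (adjusted p = 0.152). Bmp10 and Gdf2, ligands that reach tissues through the blood, were listed at 0 in all libraries.

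The receptor genes Bmpr1a and Bmpr2 did not pass. Bmpr1a (chromosome 14, 34410734 to 34503341), which encodes a type I receptor, had 2855, 3475, 4694 and 4205 normalized counts in ketones and 3570, 3491, 3321 and 3575 in PBS. Ketones 1 lay below the narrow PBS range, ketones 2 within it, and ketones 3 and 4 above it. The log2 difference was 0.10, with a 95% interval of -0.25 to 0.45 (adjusted p = 0.682 by limma). Without ketones 1 and 2 it was 0.35 and passed (adjusted p = 0.0255), and without ketones 3 it was -0.01. Of the exon bases of Bmpr1a, 4.57% are shared with Gm17110 on the other strand. Bmpr2 (chromosome 1, 59763400 to 59879014), which encodes the type II receptor, had 1543, 4611, 3486 and 2867 normalized counts in ketones and 2118, 2794, 2453 and 2758 in PBS. Ketones 1 was below every PBS library and the other 3 ketone libraries above. The log2 difference of 0.21 had an interval of -0.35 to 0.77 (adjusted p = 0.596 by limma). Without ketones 1 it was 0.51 and passed (adjusted p = 0.0387), and without ketones 2 it was -0.02.

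Of 9 other receptor and co-receptor genes 3 rose and 3 fell (66.7%), against 25.7% of all tested genes called in either direction. Acvr2b, which encodes a type II receptor shared with activins, averaged 561 ± 148 normalized counts in ketones and 266 ± 42.9 in PBS (log2 difference 1.04, adjusted p = 0.00492 by limma). Eng, the endothelial co-receptor endoglin, had 3001, 2068, 916 and 2065 in ketones and 888, 825, 826 and 953 in PBS (1.09, adjusted p = 0.0104 by limma). Acvrl1, which encodes the endothelial type I receptor ALK1, had 1223, 920, 490 and 1089 in ketones and 452, 439, 516 and 544 in PBS (0.86, adjusted p = 0.0207 by limma). In ketones 3 both of these lay within the PBS range, and the other 3 ketone libraries were above it. The co-receptor genes Rgma and Rgmb fell by 0.64 and 0.53 on the log2 scale, and Bmpr1b, a low type I receptor transcript, fell by 1.04. Acvr1, Acvr2a and Neo1 did not pass, with averages of 1472 ± 348, 1479.5 ± 409 and 2061 ± 569 in ketones and 1516 ± 69.0, 1556 ± 114 and 2856 ± 323 in PBS.

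Some of these receptor calls were lost when 1 library was left out, which also leaves fewer libraries for every test. Acvrl1 did not pass without ketones 4, PBS 1 or PBS 2 (adjusted p = 0.0637, 0.061 and 0.062), and also not without ketones 1 and 2 together (adjusted p = 0.0792). Rgma did not pass without PBS 1 or PBS 2 (adjusted p = 0.0771 and 0.0725), and Rgmb not without PBS 1, 2 or 3 (adjusted p = 0.051, 0.0605 and 0.051). Bmpr1b did not pass without any 1 library except ketones 4, with adjusted p from 0.0541 (without PBS 1) to 0.11 (without PBS 3). Neo1 passed as lower without ketones 3 (log2 difference -0.65, adjusted p = 0.019) and with the replicate block (-0.51, adjusted p = 0.0402).

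The Smad transducers did not pass. Smad1, Smad5 and Smad4 averaged 6378 ± 1449, 4255 ± 1119 and 6876 ± 657 normalized counts in ketones and 6540 ± 211, 4860 ± 404 and 6345 ± 217 in PBS, with log2 differences of -0.07, -0.23 and 0.11. Smad9 was near the minimum, at 13.8 ± 10.9 in ketones and 8.48 ± 3.57 in PBS. In ketones 1 Smad1 and Smad5 were lowest, at 4238 and 2691.

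Smad6 (chromosome 9, 63953076 to 64022059), which encodes an inhibitory Smad that blocks BMP type I receptors and is itself a BMP target, rose. It had 458, 893, 586 and 1258 normalized counts in ketones and 243, 334, 234 and 378 in PBS. All ketone libraries were above all PBS libraries, with ketones 1 closest to them and ketones 4 farthest. The log2 difference was 1.35 ± 0.29 (SE, adjusted p = 0.00376 by limma). It passed without any 1 library, with log2 differences of 1.09 to 1.58. Smad7, the other inhibitory Smad gene, had 2820, 4855, 3471 and 4250 in ketones and 1875, 2371, 1896 and 2023 in PBS and rose by 0.89 (adjusted p = 0.00223 by limma).

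Id1 (chromosome 2, 152736251 to 152737410), a classic direct BMP target, had the largest difference of the 10 genes. It had 7347, 9794, 6304 and 6294 normalized counts in ketones and 1735, 1976, 2164 and 2026 in PBS. The lowest ketone library was far above the highest PBS library. The log2 difference was 1.89 ± 0.16 (SE, adjusted p = 4.86e-06 by limma), and without any 1 library it was 1.75 to 1.96.

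Id2 (chromosome 12, 25093799 to 25097140), which is also driven by other inputs than BMP in many cell types, had 4034, 7001, 5037 and 5002 normalized counts in ketones and 2883, 3468, 3256 and 2868 in PBS. Ketones 2 stood above the other 3 ketone libraries, and ketones 1 was nearest to PBS. The log2 difference of Id2 was 0.73 ± 0.17 (adjusted p = 0.00643 by limma). Id3 (chromosome 4, 136143497 to 136145755), which acts together with Id1 downstream of BMPs, had 68283, 47355, 76502 and 58036 normalized counts in ketones and 34403, 35054, 37968 and 36427 in PBS. Here ketones 2 was the lowest ketone library and ketones 3 the highest, whereas in Id1 and Id2 ketones 2 was the highest. The log2 difference of Id3 was 0.78 ± 0.18 (adjusted p = 0.00703 by limma). Id4 (chromosome 13, 48261228 to 48266026), the least abundant of the family, had 917, 1225, 826 and 1305 normalized counts in ketones and 535, 588, 554 and 596 in PBS. The log2 difference of Id4 was 0.89 ± 0.18 (adjusted p = 0.00245 by limma), and its groups did not overlap. Of the exon bases of Id4, 4.44% are shared with Gm49291 and 2.13% with A330033J07Rik, both on the other strand. The calls of Id1, Id2, Id3 and Id4 held without any 1 library, with a largest adjusted p of 9.07e-05, 0.0288, 0.0324 and 0.0126 in this order.

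Like most tested genes, the 10 genes varied more among ketone libraries than among PBS libraries. The SD of the log2 values was larger in ketones for 10 of 10 genes, with a median of 0.32 in ketones and 0.13 in PBS. It was larger in ketones for 11294 of all 14022 tested genes, with a median of 0.40 in ketones and 0.20 in PBS. The 10 genes did not share an order of the ketone libraries, since the highest was ketones 4 for Bmp2, Smad6 and Id4, ketones 2 for Bmp4, Bmpr2, Id1 and Id2, and ketones 3 for Bmp6, Bmpr1a and Id3.

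Proximal promoters are shown because Smad complexes bind short DNA elements near BMP targets. Windows of 250 bases before to 50 after the start, from RefSeq (GRCm38.p6), were matched for 8 of the 10 genes, and those of Bmp2 and Id1 were not analysed here. The windows of Id2, Id3, Id4 and Smad6 are given 5′ to 3′ on the gene's strand, with that of Bmp6, which did not pass but holds the same composite element as Smad6. They lie at chr12:25096043-25096342 on the minus strand, chr4:136143572-136143871 on the plus strand, chr13:48260866-48261165 on the plus strand, chr9:64022010-64022309 on the minus strand and chr13:38345466-38345765 on the plus strand. Capitals mark GGCGCC, a GC-rich Smad element, or a composite of the GC-rich GNCGNC and, after 5 bases of any kind, the Smad box GTCT.
Id2: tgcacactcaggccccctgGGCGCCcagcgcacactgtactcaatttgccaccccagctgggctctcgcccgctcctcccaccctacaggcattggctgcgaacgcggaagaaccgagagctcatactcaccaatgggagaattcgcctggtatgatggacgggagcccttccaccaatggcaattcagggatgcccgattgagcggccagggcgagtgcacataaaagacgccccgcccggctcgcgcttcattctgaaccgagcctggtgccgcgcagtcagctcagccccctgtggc
Id3: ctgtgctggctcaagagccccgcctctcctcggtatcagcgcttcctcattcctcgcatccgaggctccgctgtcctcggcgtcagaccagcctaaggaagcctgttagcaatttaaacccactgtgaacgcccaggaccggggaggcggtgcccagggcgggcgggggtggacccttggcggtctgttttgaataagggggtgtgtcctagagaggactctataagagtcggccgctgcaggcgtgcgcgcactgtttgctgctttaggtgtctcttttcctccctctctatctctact
Id4: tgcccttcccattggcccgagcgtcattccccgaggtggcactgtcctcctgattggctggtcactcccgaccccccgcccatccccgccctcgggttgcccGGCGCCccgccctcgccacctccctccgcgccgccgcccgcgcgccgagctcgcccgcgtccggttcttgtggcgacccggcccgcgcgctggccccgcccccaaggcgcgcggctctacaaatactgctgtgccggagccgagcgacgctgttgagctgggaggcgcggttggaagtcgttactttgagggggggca
Smad6: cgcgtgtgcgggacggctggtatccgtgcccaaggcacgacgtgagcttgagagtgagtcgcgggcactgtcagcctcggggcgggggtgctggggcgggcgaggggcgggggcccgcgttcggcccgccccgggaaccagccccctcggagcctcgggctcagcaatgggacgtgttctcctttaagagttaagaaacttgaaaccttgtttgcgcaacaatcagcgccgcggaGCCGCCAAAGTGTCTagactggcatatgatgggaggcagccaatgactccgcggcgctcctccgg
Bmp6: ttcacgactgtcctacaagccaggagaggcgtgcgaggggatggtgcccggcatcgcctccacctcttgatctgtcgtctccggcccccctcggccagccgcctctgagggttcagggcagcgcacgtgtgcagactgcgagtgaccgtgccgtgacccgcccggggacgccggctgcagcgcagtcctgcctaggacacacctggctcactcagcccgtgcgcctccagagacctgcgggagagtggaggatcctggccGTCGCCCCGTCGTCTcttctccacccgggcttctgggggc
The motifs were searched on both strands, and GTCT, the Smad box, is also the end of the composite element. GGCGCC was in 4 of the 8 windows (Id2, Id4, Bmpr1a and Bmpr2) and in 11.9% of all 32851 RefSeq promoter windows. The composite element was in 2 of the 8, Smad6 and Bmp6, and in 0.667% of all windows. In Smad6 it reads GCCGCCAAAGTGTCT and begins at -15, counting the start base as 0, and in Bmp6 it reads GTCGCCCCGTCGTCT and begins at 10. GTCT alone was in 6 of the 8 and in 88.0% of all windows. The windows of the 8 genes were 59.3 to 79.3% G or C, against a median of 52.7% over all windows. Within these 8 windows the elements did not divide the genes by response. With the composite element Smad6 rose and Bmp6 did not pass. With GGCGCC Id2 and Id4 rose while Bmpr1a and Bmpr2 did not pass. Sequence farther from the start was not searched. A match is a description of letters and not of binding.

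The rest of the pathway moved in both directions. Of 56 other pathway genes listed, 41 were tested, of which 10 rose and 7 fell (41.5%), against 25.7% of all tested genes called in either direction. Their median log2 difference was -0.03. At an unadjusted p below 0.05, 20 of the 41 differed, against 5286 of all 14022 tested genes. Without PBS 1 and without PBS 2, 11 were called in each case (8 higher and 3 lower).

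**Figure D2:**
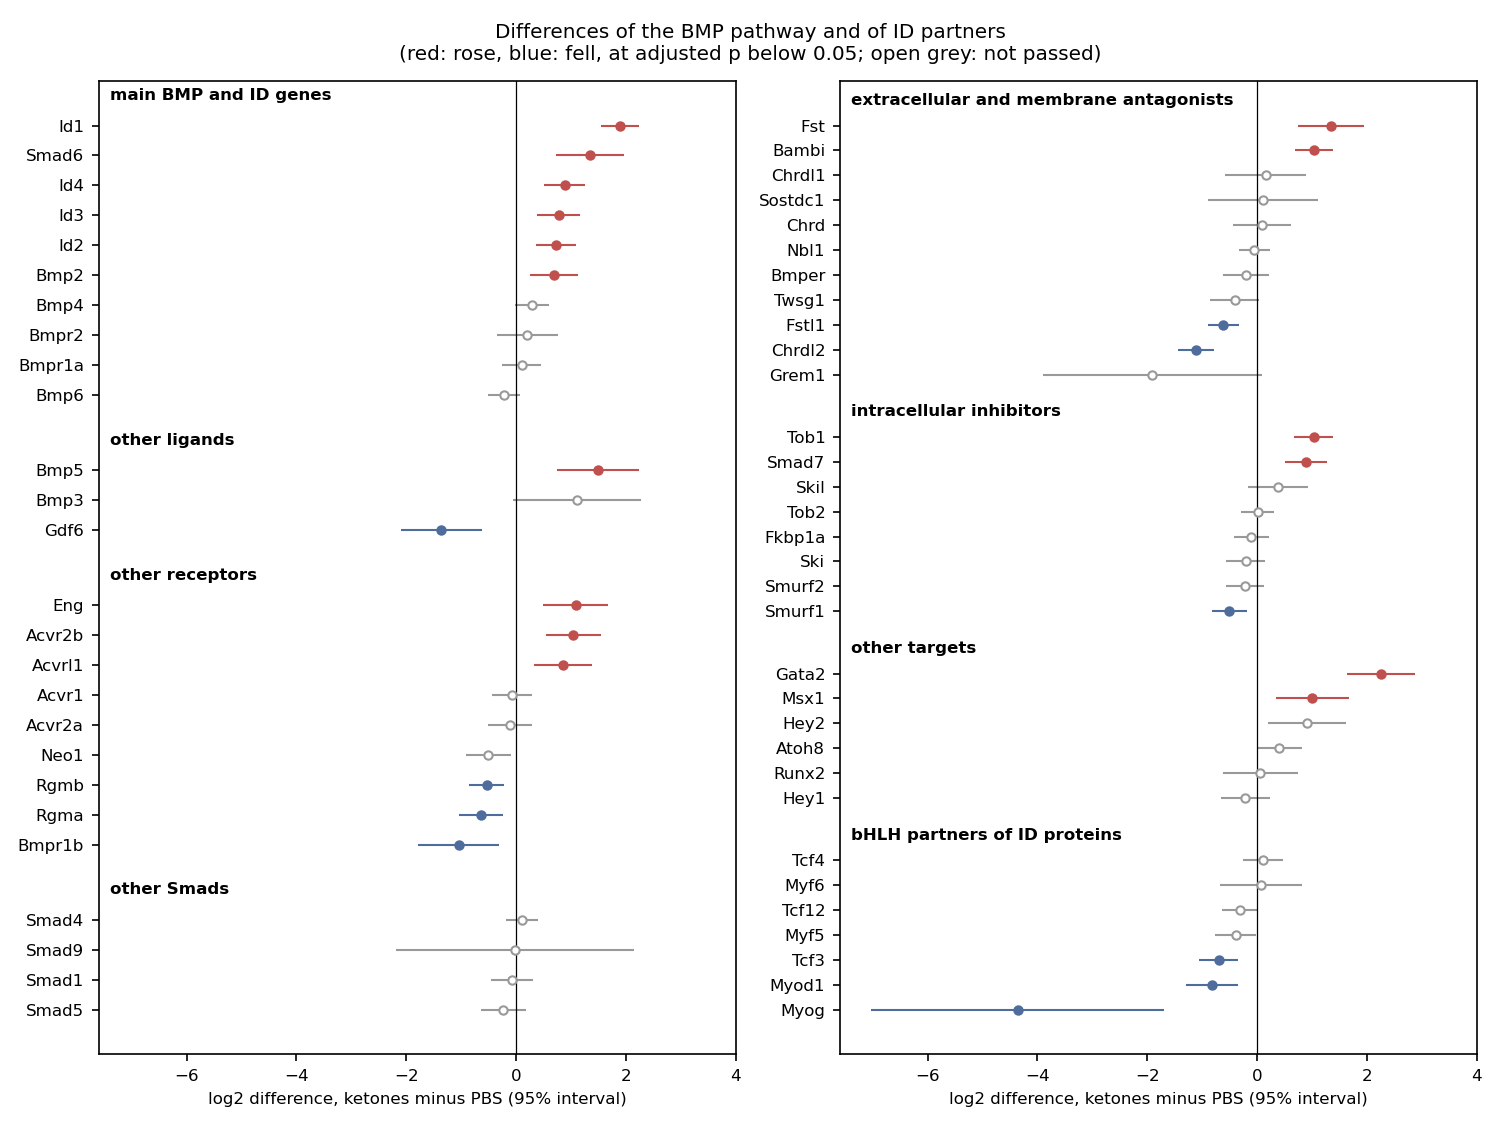
Log2 differences, ketones minus PBS (horizontal axes), with 95% intervals from limma for the 10 genes, the other tested genes of the pathway by role, and the bHLH partners of ID proteins. Red marks genes that rose, blue genes that fell, and open grey genes that did not pass. The ID genes and Smad6 lie right of 0, while receptors and antagonists lie on both sides.

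Among the antagonists that act outside the cell or at its membrane, 2 rose and 2 fell of 11 tested. This share of 36.4% stands against 25.7% of all tested genes. Bambi, a decoy receptor without a kinase that is induced by BMP and TGF-beta input, had 3902, 3309, 4670.0 and 3156 normalized counts in ketones and 1519.5, 1906, 1982 and 1837 in PBS (log2 difference 1.04, adjusted p = 0.000378 by limma). Fst, which encodes the activin and BMP trap follistatin, averaged 221 ± 69.5 in ketones and 83.7 ± 14.9 in PBS (1.35, adjusted p = 0.00319 by limma). The chordin-like gene Chrdl2 fell to 7982, 7312, 7231 and 7508 in ketones, against 16553, 12638, 18306 and 17813 in PBS (-1.11, adjusted p = 0.000166 by limma). Fstl1, a secreted protein related to follistatin, fell by 0.62 on the log2 scale. Groups did not overlap for these 4 genes. Twsg1, Nbl1 and Bmper did not pass, with log2 differences of -0.41, -0.05 and -0.21. Nog, which encodes the classic BMP antagonist noggin, was under the minimum mean, with 11.3 ± 11.5 in ketones and 5.86 ± 2.65 in PBS.

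Inside the cell, 2 of 8 inhibitors rose and 1 fell (37.5%, against 25.7% of all tested genes). Beside Smad7, Tob1, which encodes an antiproliferative protein that dampens Smad activity, had 6922, 9985, 10359 and 11261 normalized counts in ketones and 4088, 5206, 4711 and 4635 in PBS (log2 difference 1.03, adjusted p = 0.000598 by limma). Smurf1, a ubiquitin ligase for Smad1 and Smad5, fell by 0.50 (adjusted p = 0.0259 by limma), but did not pass without PBS 1, 2 or 4 (adjusted p = 0.0847, 0.0671 and 0.0686) or with equal totals or quantile normalization. Skil, Ski and Tob2 did not pass. Skil, a Smad co-repressor gene, had 15353 and 21121 in ketones 1 and 2 and 38133 and 36920 in ketones 3 and 4, against 18203 to 21542 in PBS. It passed as higher without ketones 1 (log2 difference 0.63, adjusted p = 0.0261) and without ketones 1 and 2 (0.90, adjusted p = 4.93e-05).

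Of 6 other target genes tested, 2 rose and 0 fell (33.3%, against 25.7% of all tested genes in either direction). Gata2, a transcription factor gene that endothelial and blood cells also use, had 563, 675, 276 and 524 normalized counts in ketones and 103, 129, 70.8 and 107 in PBS (log2 difference 2.26, adjusted p = 8.68e-05 by limma). Msx1, a homeobox target, averaged 142 ± 48.6 in ketones and 66.9 ± 8.20 in PBS (1.01, adjusted p = 0.0289 by limma). The Msx1 call was lost without ketones 2 or 4 or PBS 1, 2 or 4 (adjusted p = 0.0628 to 0.0763), and with quantile normalization (adjusted p = 0.118). Atoh8, Hey1 and Runx2 did not pass. Atoh8, a bHLH gene that BMP induces in liver, averaged 1672 ± 418 in ketones and 1232 ± 127 in PBS, and passed as higher without ketones 2 (0.59, adjusted p = 0.012). Hey2 also did not pass, but did so without ketones 1 (1.09, adjusted p = 0.0244).

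Of the 7 tested bHLH genes whose products pair with ID proteins, or compete with them for E proteins, 0 rose and 3 fell. Over all tested genes 12.8% rose and 12.8% fell. Myod1, the myogenic regulator, had 13247, 28397, 18406 and 21933 normalized counts in ketones and 35478, 40934, 35003 and 29182 in PBS (log2 difference -0.82, adjusted p = 0.0135 by limma). Its highest ketone library, ketones 2, lay just below the lowest PBS library. Tcf3, which encodes the E proteins E12 and E47, had 1721, 1204, 1080.1 and 1283 in ketones and 2260.5, 1871, 2033 and 2306 in PBS (-0.70, adjusted p = 0.00742 by limma). Myog, the differentiation factor, had 221, 93.4, 135 and 0 in ketones and 904, 1046, 358 and 1496 in PBS (-4.36, adjusted p = 0.0199 by limma), a difference made large by the library at 0. Myod1 did not pass without PBS 2 (adjusted p = 0.0501), and Myog not without PBS 2 or 4 (adjusted p = 0.0609 and 0.0569) or with robust estimation. The other E protein genes Tcf4 and Tcf12 did not pass, at 8390 ± 1877 and 1479.5 ± 228 in ketones and 7651 ± 812 and 1829.9 ± 127 in PBS, and neither did Myf5 (6625 ± 1565 and 8512 ± 832 in the same group order). Tcf12 passed as lower without ketones 2 (-0.41, adjusted p = 0.0461) and Myf5 without ketones 3 (-0.53, adjusted p = 0.0285).

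ID genes and Smad6 were set beside the endothelial list, since ID1, ID3, SMAD6, endoglin and ALK1 are also known from endothelium. The mean log2 level of that list was 3.01, 2.97, 1.68 and 2.76 above the PBS mean in ketones 1 to 4. In ketones 3, where it was lowest, Id1 was 1.68 above its PBS mean, Id3 1.09, Id2 0.70, Id4 0.54 and Smad6 1.01. Eng was at 0.07 and Acvrl1 at 0.01 there, while the endothelial markers Pecam1, Cdh5 and Kdr were at 1.55, 1.49 and 0.90. Id3 had its highest value in that library, and Id4 its lowest.

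**Figure D3:**
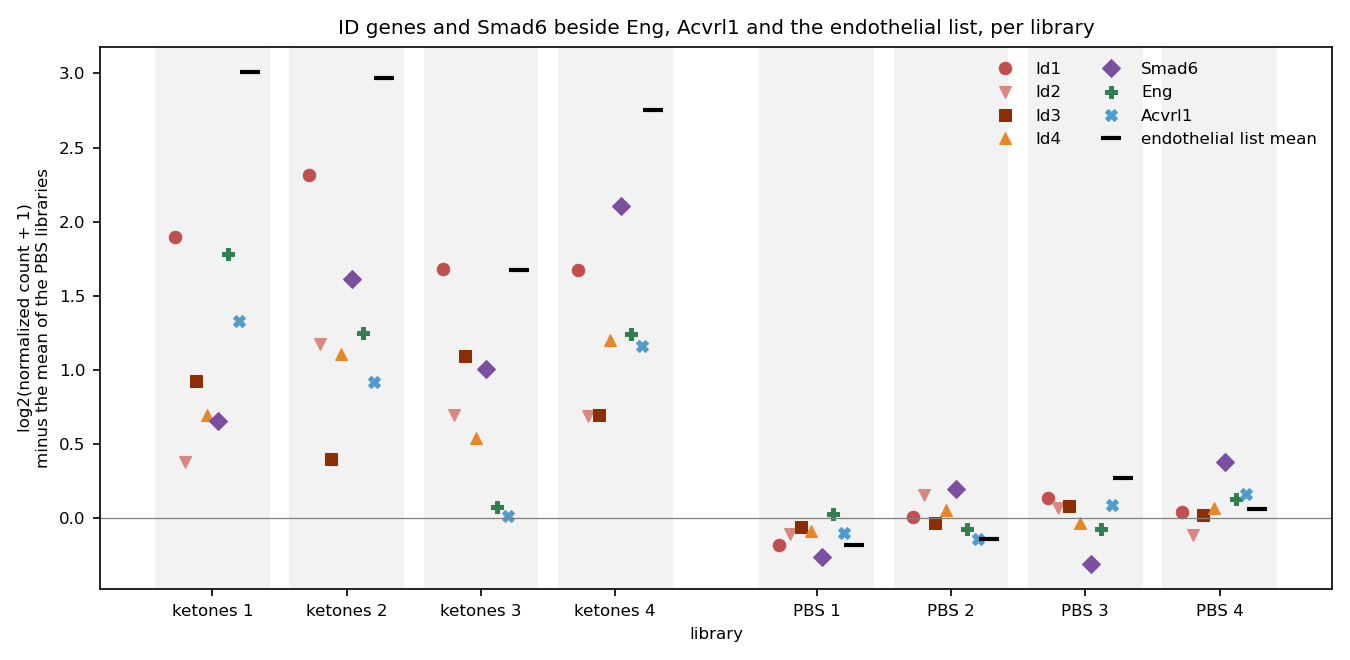
Log2(normalized count + 1) minus the mean of the PBS libraries (vertical axis) in each ketone and PBS library for the ID genes, Smad6, Eng, Acvrl1 and the mean of 17 endothelial markers. In ketones 3 the endothelial mean and Id1 both sit at 1.68, Id3 at 1.09, Smad6 at 1.01, Id2 at 0.70, Id4 at 0.54, Eng at 0.07 and Acvrl1 at 0.01.

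When the endothelial list mean entered the fit as a covariate, 0 of 14022 genes passed with limma and 1549 had an unadjusted p below 0.05, no other tool being run in this form. The list mean does not overlap between groups, so the fit has little left to estimate a group difference from. The log2 difference was then 1.11 ± 0.50 for Id1, 0.63 ± 0.57 for Id2, 1.46 ± 0.59 for Id3, 0.15 ± 0.55 for Id4, 0.94 ± 0.97 for Smad6 and 0.92 ± 0.69 for Bmp2 (SE, adjusted p from 0.39 to 0.946). The SEs were 0.50 to 0.97 with the covariate, against 0.16 to 0.29 without it. In the same covariate fit Bmpr1a and Bmpr2, which had not passed before and did not pass here, stood at 1.09 and 0.90. Without ketones 1 and 2 together, 7 of the 10 genes rose and 0 fell, the added gene being Bmpr1a, while calls over all 14022 genes numbered 4685 (2249 higher), against 3600 (1800 higher) with all libraries.

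**Figure D4:**
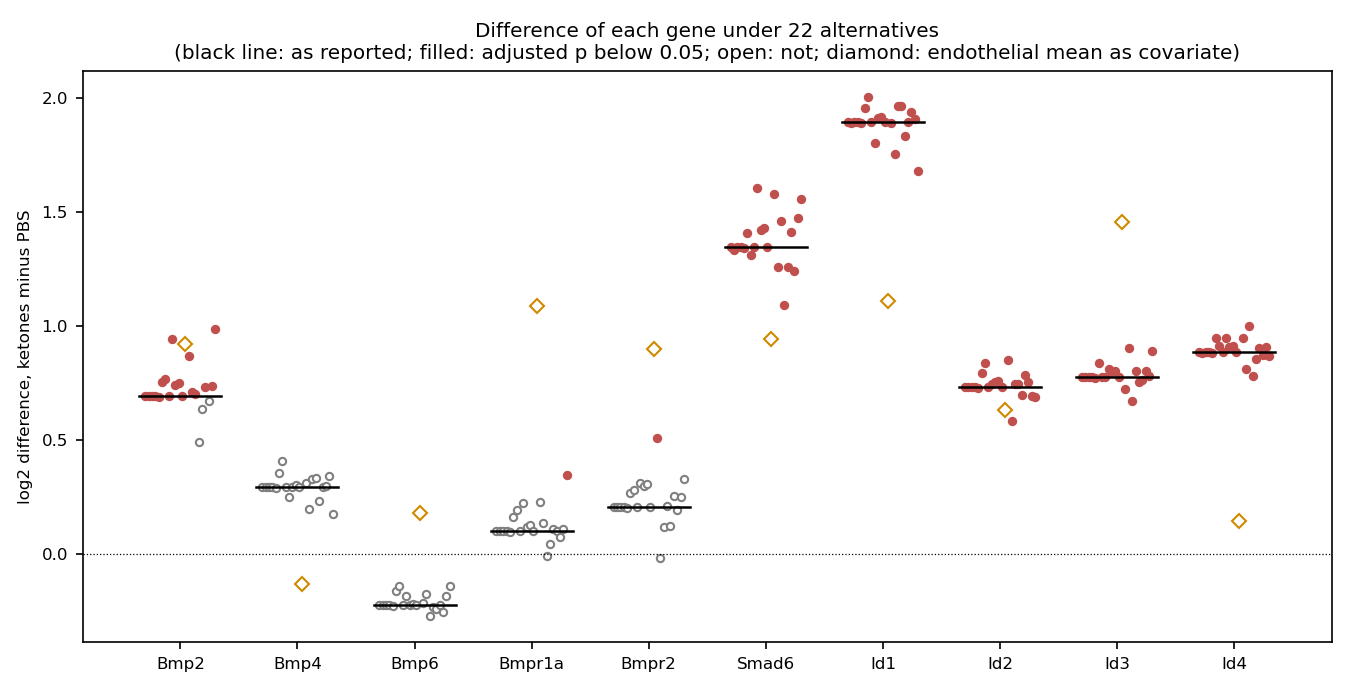
Log2 difference of each of the 10 genes, ketones minus PBS (vertical axis), as reported (black line) and under 22 alternatives (points). Filled points passed at an adjusted p below 0.05 and diamonds have the endothelial mean as a covariate. Id1 stays between 1.68 and 2.00 in all alternatives but that one, where it is at 1.11.

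For each ID gene the 3 genes with the most similar profile over the 8 libraries were named, by the smallest root mean square difference of log2 values centred on each gene's own mean, among 10597 genes with a mean of at least 100. For Id1 these were Mlf1, Bcr and Ier5l, with differences of 0.20, 0.21 and 0.21. For Id2 they were Pcna, Polr2l and Zmym5 (0.07, 0.09 and 0.09), for Id3 Xpc, Fbxo8 and Naif1 (0.08, 0.09 and 0.09), and for Id4 Klf3, Samd9l and H2-D1 (0.09, 0.10 and 0.11). Mlf1 averaged 317 normalized counts in ketones and 97.1 in PBS, Pcna 1840 and 1104, Xpc 787 and 477, and Klf3 1667 and 808 in the same group order. No ID gene was among the 3 closest of another. With only 3 genes kept of 10597, this does not tell whether the ID genes vary together.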

How the data were processed

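Transcripts of sorted muscle stem cells were sequenced in 4 ketone and 4 PBS libraries, grouped by treatment label. Per the labels' protocols, cDNA was primed with oligo(dT), sheared and amplified. Per the submitters' processing notes, Trim Galore, STAR, featureCounts, Subread and DESeq2 were used with mm10, and versions, settings and strand were not among the sources used. The deposited signal is a normalized read count, namely a count divided by 1 factor per library. Dividing by what 1 read is worth (0.638 to 1.39) gave whole reads for 100% of values, within 0.001 of a read, so reads were recovered. The table has 25239 rows, of which 2 with a date for a name were dropped and 6219 hold only zeros. Intervals cover the spread between libraries, and PCR copies count as reads.

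Because the unit was a normalized signal, limma 3.58.1 in R 4.3.3 (lmFit, eBayes with a trend, two-sided, Benjamini-Hochberg over 14022 genes, no covariates) was the main test on log2(value + 1), a scale that understates changes of low genes. All adjusted p for genes are from it or its stated alternatives, and tests were checked on simulated data. edgeR 4.0.16 and DESeq2 1.42.0 were run on recovered reads. Lengths and coordinates came from GENCODE M21 (mm10), which held 96.5% of the symbols. The 10 genes, the lists and the tests were chosen with earlier results of these data known. Named were the 10 genes, every pathway or bHLH gene that passed with up to 3 abundant others per list, fixed cell type markers, and the 3 genes most like each ID gene. Nog, Bmp10, Gdf2, Hey2 and Smad9 were added after their values were seen. All pairs of replicates differed by more than sampling noise, with a lowest chi-square of 12.7 per degree.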

Additional observations from a re-analysis of the deposited data

Results flagged for a closer look

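The gap test for a single library apart from the other 3 of its group was made for 44 sets of values, and about 1 in 20 is flagged by chance. It picked out Bmp4 in ketones 2, at 7210 normalized counts against 5436 to 5731 in the other ketone libraries, with a gap of 0.834 of the range. It also picked out the depth of ketones 1, at 36870537 recovered reads against 25465671 to 26873992 in the other ketone libraries, with a gap of 0.877 of the range.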

How the results depend on the processing

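The calls of Id1, Id2, Id3, Id4 and Smad6 held in 21 of 22 alternatives, the exception being the endothelial covariate, and that of Bmp2 in 18. With that covariate 0 genes, 0 of the 10 genes and 0 of the other pathway genes passed (1549, 3 and 10 at an unadjusted p below 0.05), and the signs of Bmp4 and Bmp6 turned (-0.13 and 0.18). With 1 library left out Bmpr2 ranged from -0.0151 (without ketones 2) to 0.51 and Bmpr1a from -0.00803 (without ketones 3) to 0.23, so both signs turned. The calls numbered 2354 (without PBS 1) to 4076 (without ketones 1) for all genes, 5 to 7 for the 10 genes and 11 to 18 for the pathway with 1 library left out. At an adjusted p below 0.01 they numbered 1912, 5 and 9. With the library number as a replicate block 6 of the 10 genes, 18 pathway genes and 3595 of all genes passed, but same-numbered libraries did not deviate together (correlations of 0.106, -0.0106, 0.00302 and -0.0614 for numbers 1 to 4). Other scalings, pseudocounts, filters and tools changed no call of the 10 genes. Genes near the minimum mean, such as Smad9 and Nog, are limited by depth.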
